A study of Homo sapiens with 16 samples.

Results

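Ribosome-protected fragments (RPFs) of HEK293T cells treated with tunicamycin (Tm) were compared with those of untreated cells, transcript by transcript. The HEK293T line derives from human embryonic kidney and expresses the large T antigen of SV40, and Tm is a drug that blocks N-linked glycosylation in the endoplasmic reticulum (ER). The comparison used the 4 Ribo-Seq libraries of untreated cells and of cells given 1 µg/ml Tm for 1 hr, with replicates a and b in each group. A transcript was included when its deposited count table gave a coding sequence length and when it had at least 10 RPF counts in at least 2 of these 4 libraries, which 12273 of 21520 transcripts met. Of the others, 5937 had 0 counts in all 4 libraries. The series holds 16 libraries, and the Ribo-Seq libraries of cells given 200 nM ISRIB, or Tm together with ISRIB, for the same 1 hr entered the fit and are used beside the Tm result. ISRIB is a small molecule that counters the effects of eIF2α phosphorylation. The mRNA-Seq libraries of the same 4 lysates were used to set RPF changes beside changes in mRNA.

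ER stress activates the kinase PERK, which phosphorylates the α subunit of the initiation factor eIF2. Phosphorylated eIF2 inhibits its own exchange factor eIF2B, the complex of eIF2, GTP and initiator tRNA becomes limiting, and initiation falls on most mRNAs. A small class of mRNAs with upstream open reading frames (uORFs) in the 5′ UTR is translated better under these conditions. In a model from yeast GCN4, ribosomal subunits stay on the mRNA after a short uORF and start again at the coding sequence. The study states that it is not known whether all of these mRNAs use that mechanism. Ribo-Seq counts the mRNA fragments held by ribosomes, and so measures how many ribosomes occupy each coding sequence.

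The RPF totals were 8330380 and 11998181 counts for the untreated replicates and 4367220 and 3141634 for the Tm replicates, so the Tm libraries were the shallower ones. Levels are given as CPM, the share of a library that a transcript holds after TMM scaling, and a change in the total amount of translation cannot be read from such shares. Of the 12273 transcripts, 556 passed the count rule only through both untreated libraries and 0 only through both Tm libraries. Of these 556, 13 were called lower in Tm and 0 higher.

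The quasi-likelihood test of edgeR was run over all 12273 transcripts, with Benjamini-Hochberg adjustment and a threshold of 0.1 on the adjusted p. RPFs changed on 1571 transcripts, 12.8% of those tested, at this threshold. They rose on 753 transcripts (6.14%) and fell on 818 (6.67%). The median log2 fold change over all tested transcripts was -0.009, and the 5th and 95th percentiles were -0.51 and 0.49. With libraries scaled by their totals in place of TMM, the split of the calls was 1132 rises to 573 falls and the median of all transcripts moved to 0.043, so the balance between rises and falls depends on the scaling. In a design of 2 libraries per group the smallest p of an exact permutation test for a single transcript is 0.33, and the calls rest on a spread that is shared across transcripts.

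Most of these changes were small. The median change was 1.33-fold among the rises and 1.33-fold among the falls, and 76.9% of the rises and 79.1% of the falls were under 1.5-fold. More than 2-fold rises numbered 44 (0.359% of those tested), and more than 2-fold falls numbered 28 (0.228%). Of these 72 transcripts, 34 had fewer than 100 counts over the 4 libraries and 3 had 1000 or more. The Tm and untreated libraries did not overlap in CPM for 99.5% of the called transcripts, beside 50.8% of all tested.

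**Figure D1:**
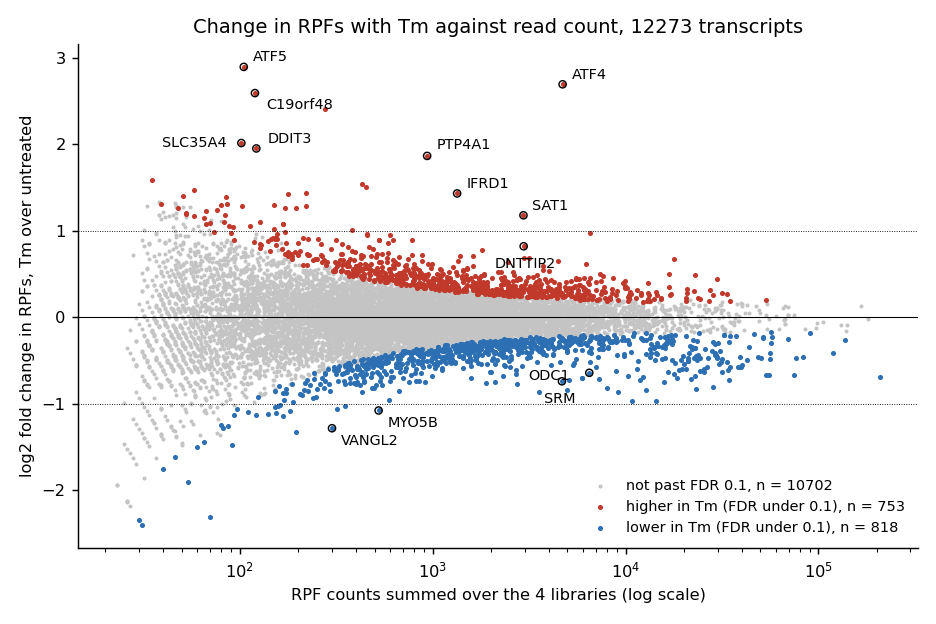
Each point is 1 of the 12273 transcripts, with its RPF counts summed over the 4 libraries on a log axis and its log2 fold change (Tm over untreated) on the other; red and blue points passed the threshold (753 higher, 818 lower), and dotted lines mark 2-fold. Changes over 2-fold lie mostly at low counts, and ATF4 stands far above transcripts of similar count.

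The read count set how small a change could be called. In the decile of transcripts with the fewest counts (23 to 93 over the 4 libraries) the median standard error of the log2 fold change was 0.46, and the smallest called change was 1.96-fold. In the decile with the most counts (4587 or more) the median standard error was 0.08, and changes down to 1.12-fold were called. In that highest decile 10.7% of the transcripts rose and 19.3% fell.

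Gene symbols could be attached to 1986 of the tested transcripts, 1938 of them from a table of read counts whose readable part covers chromosomes 1 and 2 and part of 3. Among these 1938, 6.97% rose and 6.24% fell, close to the shares over all transcripts. The remaining symbols come from the study's lists of strongly changed transcripts, which were chosen on these same libraries, so the large changes named from them are not independent evidence of direction. The largest rises and falls below are mostly of this kind. Of the 84 named transcripts that passed the threshold, 33 also passed it in every alternative processing tried, 31 lost the call without Tm replicate a and 45 without Tm replicate b.

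Of the 24 gene lists examined, mRNAs with known regulatory uORFs had the highest median change. All 7 listed members were tested and all 7 rose, by a median of 1.95 on the log2 scale, beside 6.14% rising among all transcripts. However, 6 of the 7, all but PPP1R15B, are in the study's list, which was chosen on these same libraries. The rank of the group and the direction of those members are therefore not independent evidence. Short upstream frames of at most 30 bases were read from the GENCODE v29 transcripts of 4 of them, matched by symbol and coding length, and are shown because they precede the coding sequences whose RPFs rose. Capitals mark the start and stop codon of the frame, written 5′ to 3′ on the strand of the transcript.
ATF4: ATGgcgtatTAG
ATF5: ATGgctctgTAG
PPP1R15B: ATGgtgttgaagcgtcgagccgacTAG
SLC35A4: ATGtggtggccaaacTGA

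The gene of ATF4 lies on the plus strand of chromosome 22 at 39519695 to 39522685 on GRCh38, and its frame of 3 codons starts 196 bases before the coding sequence. The frame of ATF5 (chromosome 19, 49928702 to 49933935, plus strand) also has 3 codons and starts 246 bases before the coding sequence. The matched 5′ UTRs of ATF4 and ATF5 also hold 1 upstream frame each that runs past the start of the coding sequence. The frame of PPP1R15B (chromosome 1, 204403387 to 204411791, minus strand) has 8 codons and starts 279 bases upstream, and that of SLC35A4 (chromosome 5, 140564456 to 140569103, plus strand) has 5 codons and starts 556 bases upstream. The 5′ UTR of SLC35A4 holds 11 upstream AUGs in all, and the one printed is the first with a frame this short. The printed frames were picked by length alone, and whether they regulate translation was not tested. For SLC35A4, the peptide evidence that the study cites concerns the longest uORF. RPFs on the upstream frames themselves were not counted in the deposited tables.

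ATF4 is the bZIP transcription factor that directs the transcriptional arm of the response. It had 653 and 689 RPF counts in the untreated libraries and 1958 and 1419 in the Tm libraries, or 77.6 and 58.6 CPM against 433 and 441 CPM. Both Tm libraries were far above both untreated ones, and the rise was 6.47-fold (log2 2.69 ± 0.10 SE, adjusted p = 2.7e-18). ATF5, its close paralog, was at 1.43 and 1.28 CPM untreated and at 9.95 and 10.3 CPM in Tm, a log2 change of 2.89 ± 0.32 (adjusted p = 1.8e-07). That change rests on 12 and 15 counts in the untreated libraries.

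DDIT3 encodes CHOP, a bZIP factor linked to cell death under prolonged stress. It rose from 2.14 and 2.64 CPM to 9.73 and 9.02 CPM (log2 1.95 ± 0.30, adjusted p = 3.7e-05). PPP1R15A encodes GADD34, the inducible subunit that directs a phosphatase to eIF2α, and went from 5.47 and 5.36 CPM to 11.9 and 18.03 CPM (log2 1.43 ± 0.24, adjusted p = 1.1e-04). For the largest rises, which include ATF4, ATF5, DDIT3 and PPP1R15A, groups without overlap were a condition of naming. That separation therefore adds no support, and the 2 Tm values of PPP1R15A lie well apart. PPP1R15B encodes CReP, the constitutive partner of the same phosphatase, and rose less, from 48.7 and 49.4 CPM to 86.0 and 73.1 CPM (log2 0.71 ± 0.10, adjusted p = 2.5e-05).

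IFRD1, a transcriptional coregulator, had 35.8 and 29.8 CPM untreated and 97.3 and 77.1 CPM in Tm (log2 1.43 ± 0.12, adjusted p = 1.9e-09). SLC35A4, of the nucleotide-sugar transporter family, went from 14 and 26 counts to 35 and 27 counts in libraries of lower depth, which is 1.66 and 2.21 CPM against 7.74 and 8.40 CPM (log2 2.01 ± 0.33, adjusted p = 1.1e-04). All 7 members of the group passed the threshold whichever of the 4 libraries was left out. Of the 6 with a tested mRNA, 0 had changed mRNA, and their mRNA log2 changes had a median of -0.04. The group's summed level was 173 and 149 CPM in untreated libraries and 656 and 637 CPM in Tm.

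Other transcripts rose to a similar degree. PTP4A1, a small membrane-anchored tyrosine phosphatase, was at 18.2 and 20.5 CPM untreated and at 63.2 and 79.9 CPM in Tm (log2 1.87 ± 0.13, adjusted p = 6.8e-11). C19orf48 rose from 1.90 and 1.70 CPM to 10.6 and 11.2 CPM (log2 2.59 ± 0.30, adjusted p = 4.3e-07). PNRC2, a cofactor of nuclear receptors and of mRNA decapping, went from 12.9 and 9.10 CPM to 29.9 and 31.7 CPM (2.83-fold, SE 0.17 on the log2 scale, adjusted p = 2.9e-07), and its mRNA rose as well (log2 0.58, adjusted p = 0.034). Groups that do not overlap in CPM were a condition of naming these transcripts, so their separation adds no support.

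UCP2, a carrier of the inner mitochondrial membrane, had 11.3 and 9.18 CPM untreated and 28.8 and 30.5 CPM in Tm (log2 1.54 ± 0.17, adjusted p = 2.2e-07). Its mRNA was lower in both Tm libraries than in either untreated one, at 5.22 and 4.76 CPM, with a log2 difference of -1.08 that did not pass the threshold (adjusted p = 0.11). BCL2L11, which encodes the proapoptotic protein BIM, rose from 4.04 and 4.59 CPM to 12.6 and 10.6 CPM (log2 1.43 ± 0.27, adjusted p = 6.7e-04). C7orf31, at 12 and 16 untreated counts, rose by 1.47 ± 0.45 (adjusted p = 0.040), and lost the call without Tm replicate a (adjusted p = 0.22), Tm replicate b (0.13) or untreated replicate b (0.12).

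**Figure D2:**
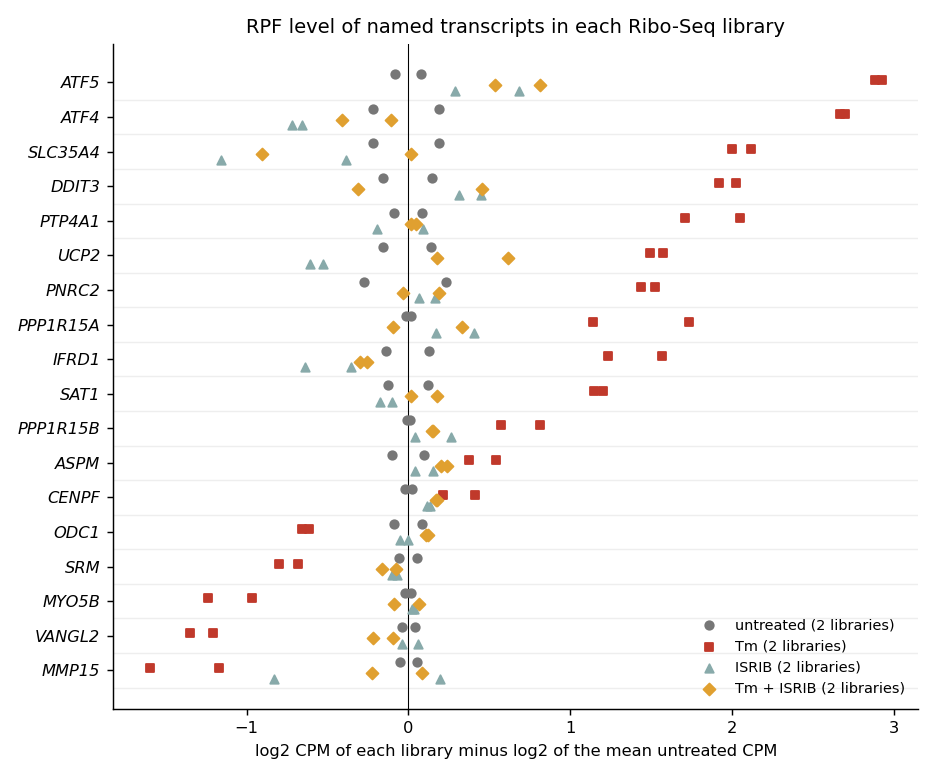
Each row is a named transcript and each symbol 1 Ribo-Seq library, placed at its log2 CPM minus the log2 of the mean untreated CPM (circles untreated, squares Tm, triangles ISRIB, diamonds Tm + ISRIB, 2 libraries each). The Tm squares lie right of both circles from ATF5 to CENPF and left of both from ODC1 to MMP15.

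Upstream AUGs were about as frequent among called transcripts as among all. Among 1827 tested transcripts with a symbol from the read-count table and a matched 5′ UTR, 46.7% held at least 1 upstream AUG, beside 49.6% of the 129 that rose and 45.8% of the 120 that fell. Transcripts with 4 or more upstream AUGs had a median log2 change of 0.007 (n = 174), and those without any had -0.003 (n = 973). An upstream frame that overlaps the coding sequence was present in 15.1% of all, 13.2% of the rises and 6.67% of the falls. These shares are descriptions of an annotation chosen by coding length. Where several transcripts matched, annotation tags for the principal isoform came first, and the shortest 5′ UTR decided among ties. Among the rises over 2-fold with at least 50 counts and a matched UTR, 22 of 28 held an upstream AUG, but most of these 28 carry a symbol because the study listed them.

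In the list of cytosolic ribosomal proteins every tested member fell, beside 6.67% of all transcripts. Their mRNAs begin with a terminal oligopyrimidine tract, and their translation is known to follow mTOR signaling. All 13 tested transcripts fell, by -0.82 to -0.34 on the log2 scale with a median of -0.47, and the highest adjusted p among them was 0.0012. Their summed level was 12900 and 13700 CPM in the untreated libraries and 9270 and 9710 CPM in Tm. The share of all RPF counts that they held went from 1.30% and 1.34% to 0.961% and 0.995%. All 13 fell without any 1 of the 4 libraries and under each alternative tried. On the mRNA side 3 of the 13 rose and 0 fell, with a median of 0.20, beside 6.67% rising and 4.52% falling among all tested. Mitochondrial ribosomal proteins had calls in both directions, with 2 rises, 3 falls and a median of -0.01 over 19 transcripts. The shares over all transcripts were 6.14% rising and 6.67% falling. MRPL37 fell (log2 -0.48 ± 0.08, adjusted p = 9.1e-05) as did MRPS15 (-0.39 ± 0.09, adjusted p = 0.0055). The mRNA of both rose (log2 0.36 and 0.40, adjusted p = 0.03 and 0.043). MRPL44 rose (0.34 ± 0.09, adjusted p = 0.010) and lost the call without Tm replicate b (log2 0.27).

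Enzymes of polyamine metabolism changed in opposite directions. Ornithine decarboxylase (ODC1) makes putrescine and spermidine synthase (SRM) makes spermidine, whereas SAT1 is the acetyltransferase that starts polyamine breakdown. ODC1 was at 241 and 271 CPM untreated and at 162 and 167 CPM in Tm (log2 -0.64 ± 0.08, adjusted p = 1.2e-06). SRM fell from 180 and 195 CPM to 117 and 108 CPM (log2 -0.74 ± 0.08, adjusted p = 2.9e-07). SAT1 rose from 86.0 and 72.5 CPM to 176 and 182 CPM (log2 1.18 ± 0.09, adjusted p = 4.0e-10). None of the 3 had a changed mRNA by the test, with log2 values of 0.05, -0.41 and 0.14 in the same order, and the adjusted p for SRM mRNA was 0.11. In the whole list of nucleotide and polyamine synthesis, 1 of 14 rose and 3 fell, with a median of -0.04, beside 6.14% and 6.67% of all transcripts. SAT1, the rise, has its symbol from the study's list of strong changes, so its direction is not independent evidence. The other fall was ADSS (log2 -0.28 ± 0.09, adjusted p = 0.055), an enzyme of purine synthesis, which lost the call without Tm replicate b (adjusted p = 0.38) or untreated replicate b (0.19), and with DESeq2 (0.20).

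ZNF638, a zinc finger protein that binds RNA, rose from 127 and 127 CPM to 180 and 190 CPM (log2 0.54 ± 0.08, adjusted p = 3.3e-05). The zinc finger genes as a whole had 3 rises and 0 falls in 32, with a median of 0.13, beside 6.14% rising among all transcripts. The other rises were ZNF644, which lost the call without Tm replicate b (adjusted p = 0.22), and ZNF672, which lost it without any 1 of the 4 libraries (adjusted p between 0.12 and 0.42), so that 1 rise was left without Tm replicate b.

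Of 20 tested transcripts of mitosis, 9 rose and 0 fell, with a median log2 change of 0.26, beside 6.14% rising among all transcripts. ASPM, which shapes the spindle poles, went from 193 and 169 CPM to 235 and 263 CPM (log2 0.46 ± 0.08, adjusted p = 3.4e-04). The kinetochore protein CENPF went from 390 and 379 CPM to 446 and 512 CPM (log2 0.31 ± 0.07, adjusted p = 0.0050), and the kinesin KIF2C rose by 0.34 ± 0.08 (adjusted p = 0.0045). Without Tm replicate b the adjusted p was 0.18 for CENPF and 0.11 for KIF2C. The count of rises was 3 without Tm replicate a, 1 without Tm replicate b and 4 without untreated replicate b, while the median stayed between 0.21 and 0.29. The median mRNA change of the group was 0.05.

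Other nuclear groups are given beside the same 6.14% rising and 6.67% falling among all transcripts. Ribosome biogenesis factors had 5 rises and 0 falls in 29 (median 0.10), led by DNTTIP2, a factor of the early nucleolar particle, at 99.6 and 78.6 CPM untreated and 147 and 168 CPM in Tm (log2 0.82 ± 0.11, adjusted p = 3.2e-06). NOP58, a core protein of box C/D particles, rose by 0.35 ± 0.08 (adjusted p = 0.0029), and POLR1A, the large subunit of RNA polymerase I, by 0.34 ± 0.09 (adjusted p = 0.015). Without Tm replicate b the count was 1, and with library totals it was 11. Splicing factors and nuclear RNA-binding proteins had 6 rises and 1 fall in 35 transcripts (median 0.10). The helicase DHX9 rose by 0.32 ± 0.06 (adjusted p = 0.0014), THRAP3 by 0.33 ± 0.07 (adjusted p = 0.0039) and SFPQ by 0.30 ± 0.08 (adjusted p = 0.015). HNRPLL fell (-0.30 ± 0.10, adjusted p = 0.053). It lost the call with DESeq2 (adjusted p = 0.23), library totals (0.12) or only the 4 libraries in the fit (0.11). The call of HNRPLL was also lost without Tm replicate a (log2 -0.27), Tm replicate b (-0.33) or untreated replicate b (-0.30). SFPQ lost the call without untreated replicate a (log2 0.14, adjusted p = 0.20) or Tm replicate b (adjusted p = 0.19). Without Tm replicate b 2 rises were left in this list, and with library totals there were 10. DNA replication and repair had 3 rises and 0 falls in 19 (median 0.11), namely MSH6, CLSPN and ORC1 at 0.23 to 0.27, and 0 rises without either Tm library.

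**Figure D3:**
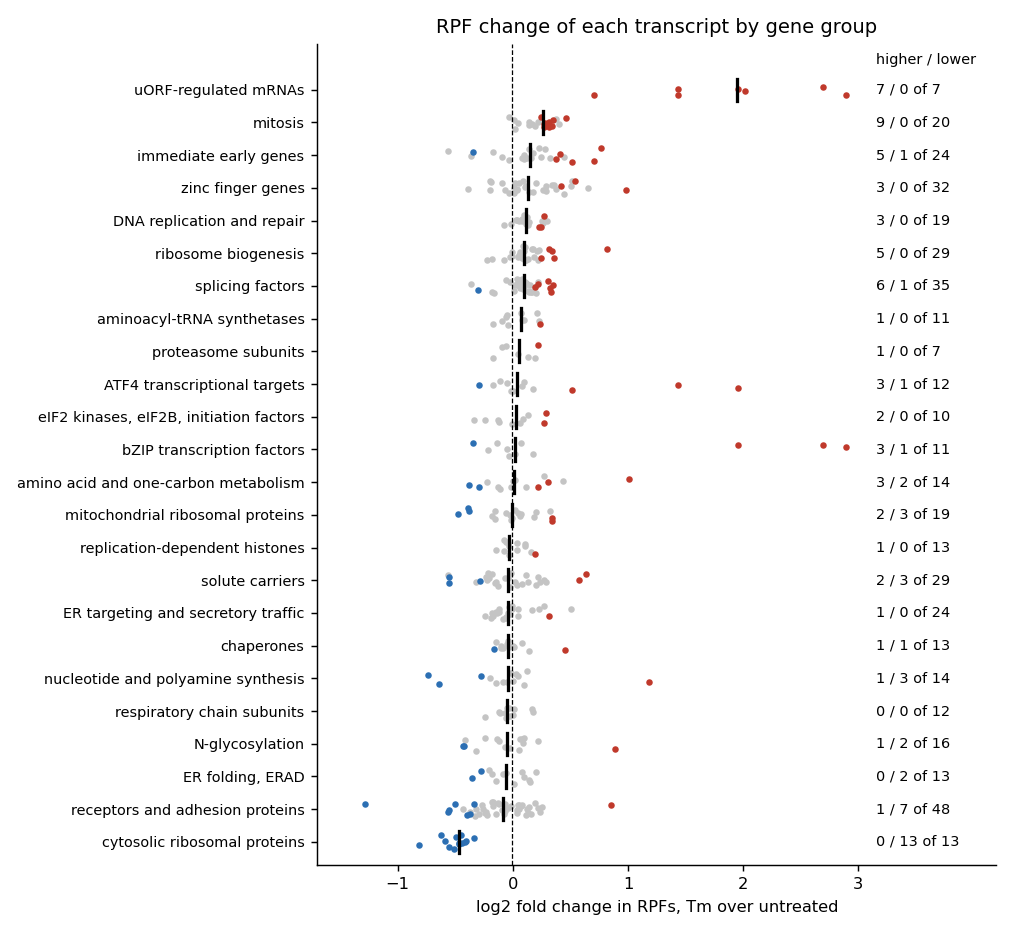
Each point is a transcript at its RPF log2 fold change (Tm over untreated), grouped by gene list; red and blue points passed the threshold, black bars are list medians, the dashed line is the median of all tested transcripts and the numbers give calls higher, lower and tested. The uORF-regulated group and the cytosolic ribosomal proteins are the groups in which every member was called, and mitosis has the next highest median at 0.26.

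Of 48 receptors and adhesion proteins of the cell surface, 1 rose and 7 fell, with a median of -0.09, beside 6.14% rising and 6.67% falling among all transcripts. On the mRNA side 2 of 47 fell and 0 rose, beside 4.52% falling and 6.67% rising among all tested. VANGL2, a planar cell polarity protein, went from 13.3 and 12.6 CPM to 5.09 and 5.60 CPM (log2 -1.28 ± 0.23, adjusted p = 3.4e-04). The receptor tyrosine kinase EPHA2 fell by 0.40 on the log2 scale (SE 0.11, adjusted p = 0.020) and the receptor phosphatase PTPRF by 0.34 (SE 0.10, adjusted p = 0.033). SDC1, NRP2, SEMA4C and AGRN also fell. The groups overlapped for AGRN, at 77.7 and 107 CPM untreated and 82.9 and 58.5 CPM in Tm, and its mRNA fell as well (log2 -0.59, adjusted p = 0.056). The number of falls was 4 without Tm replicate a, 2 without Tm replicate b and 4 without untreated replicate b, and 1 with DESeq2. EPHA2 and PTPRF lost their calls without Tm replicate b (adjusted p = 0.13 and 0.41). The summed level of the 48 was 1550 and 1590 CPM untreated and 1580 and 1350 CPM in Tm, so the Tm replicates differed by more than the groups did. LRP1B, a very large lipoprotein receptor, was the rise, at 6.89 and 8.25 CPM untreated and 16.6 and 10.3 CPM in Tm (log2 0.85 ± 0.23, adjusted p = 0.018). It lost the call without Tm replicate a (log2 0.42), and its mRNA fell (log2 -0.26, adjusted p = 0.092).

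Other large falls were those of MMP15, a membrane-bound metalloprotease, PAQR5, a membrane progestin receptor, and MYO5B, a myosin of vesicle transport. MYO5B went from 22.3 and 21.8 CPM to 11.3 and 9.33 CPM (log2 -1.08 ± 0.17, adjusted p = 9.4e-05) and kept the call in every alternative. MMP15 went from 8.79 and 8.16 CPM to 3.76 and 2.80 CPM (log2 -1.33 ± 0.32, adjusted p = 0.0087), and lost the call without Tm replicate b (log2 -1.16). PAQR5 had 37 and 43 untreated counts and 7 and 4 in Tm (log2 -1.48 ± 0.42, adjusted p = 0.024), and it lost the call without Tm replicate a (adjusted p = 0.14) or b (0.16). MAP3K10, PTPN21, DET1, SH3RF3, MAPK8IP1, EHBP1L1, KIAA1841 and HCN2 also fell by between 1.03 and 1.44 on the log2 scale. Of these 8, each but KIAA1841 lost its call without at least 1 library, and KIAA1841 (13.2 and 13.6 CPM against 6.86 and 5.91 CPM, adjusted p = 0.0017) kept it in every alternative. All 12 of the largest falls are in the study's list. PAQR5, MAP3K10 and PTPN21 reached 10 counts only in the untreated libraries, so they passed the count rule only where they were high. Their falls are therefore not independent of that rule. The mRNA of KIAA1841 fell as well (log2 -0.45, adjusted p = 0.082).

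Of 16 transcripts of N-glycosylation, the process that Tm blocks, 1 rose and 2 fell, with a median of -0.05, beside 6.14% rising and 6.67% falling among all transcripts. OST4, a very small subunit of the oligosaccharyltransferase with 18 counted codons, rose from 26.4 and 19.9 CPM to 40.7 and 44.5 CPM (log2 0.89 ± 0.14, adjusted p = 5.3e-05). DDOST, another subunit of that enzyme, fell (log2 -0.42 ± 0.09, adjusted p = 0.0021), as did the glucosidase MOGS (-0.43 ± 0.11, adjusted p = 0.012). Both lost the call without Tm replicate b (log2 -0.26 and -0.40). The mRNA of DDOST rose (log2 0.33, adjusted p = 0.051). ER folding and ER-associated degradation had 0 rises and 2 falls in 13, the disulfide isomerase PDIA6 (-0.28 ± 0.08, adjusted p = 0.031) and DNAJC10 (-0.36 ± 0.12, adjusted p = 0.064), and 0 of these 2 was called without Tm replicate b (adjusted p = 0.40 and 0.51). ER targeting and secretory traffic had 1 rise, VAMP3 (0.31 ± 0.11, adjusted p = 0.088), and 0 falls in 24. Of its 20 members with a tested mRNA, 7 had higher mRNA, beside 6.67% of all tested. VAMP3 was among these (mRNA log2 0.54, adjusted p = 0.031). VAMP3 lost the call without any 1 of the 4 libraries (adjusted p between 0.10 and 0.42) and with DESeq2 (0.29).

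Of the bZIP factors outside the uORF group, 1 passed the threshold, beside 12.8% of all transcripts tested. In the list of 11, the 3 rises were ATF4, ATF5 and DDIT3, and JUN fell (log2 -0.34 ± 0.10, adjusted p = 0.039), a call lost without Tm replicate a (adjusted p = 0.19), Tm replicate b (0.16) or untreated replicate b (0.22), and with DESeq2 (0.18). ATF6, the membrane-bound factor of another branch of the ER stress response, had a log2 change of 0.02 ± 0.09 (adjusted p = 0.92), and NFE2L2 had 0.07 ± 0.10. CREB1 had -0.14 ± 0.14 and ATF2 -0.22 ± 0.16. ATF3 had 0.17 ± 0.26, CREB3L4 -0.03 ± 0.31 and BATF3 -0.05 ± 0.40, and these SEs are the widest of the list beside that of ATF5 and DDIT3.

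Among 12 known transcriptional targets of ATF4, 3 rose and 1 fell, with a median of 0.04, beside 6.14% rising and 6.67% falling among all transcripts. The rises were DDIT3 and PPP1R15A, which are also in the uORF group, and GADD45A, a stress-induced inhibitor of growth (log2 0.51 ± 0.16, adjusted p = 0.040), which lost the call without Tm replicate b (log2 0.28, adjusted p = 0.49). MTHFD2, a mitochondrial folate enzyme, fell (log2 -0.30 ± 0.08, adjusted p = 0.025), and without Tm replicate b its adjusted p was 0.18. Of the 10 targets with a tested mRNA, 0 had changed mRNA.

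Of 10 kinases and initiation factors of the pathway, 2 rose and 0 fell, with a median of 0.03, beside 6.14% and 6.67% of all transcripts. EIF5B, which joins the ribosomal subunits, rose by 0.27 ± 0.07 (adjusted p = 0.019), and EIF4E2, a cap-binding protein, by 0.29 ± 0.10 (adjusted p = 0.061). Both calls were lost without Tm replicate b (log2 0.25 and 0.25). The mRNA of EIF5B fell (log2 -0.41, adjusted p = 0.086). EIF2AK3, which encodes PERK, had a log2 change of -0.13 ± 0.26, and EIF2AK2, which encodes PKR, -0.24 ± 0.10 (adjusted p = 0.11). The eIF2B subunits EIF2B3 and EIF2B4 had 0.09 ± 0.09 and 0.13 ± 0.11. EIF2D had 0.06 ± 0.13, EIF3I -0.12 ± 0.07, EIF4G3 -0.01 ± 0.07 and EIF1B -0.34 ± 0.13.

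In amino acid and one-carbon metabolism 3 of 14 transcripts rose and 2 fell (median 0.01), beside 6.14% and 6.67% of all transcripts. CPS1, the first enzyme of the urea cycle, went from 10.6 and 10.7 CPM to 23.2 and 19.3 CPM (log2 1.01 ± 0.17, adjusted p = 2.0e-04). Methionine synthase (MTR) rose by 0.30 ± 0.08 (adjusted p = 0.019) and MAT2A, which makes S-adenosylmethionine, by 0.22 ± 0.08 (adjusted p = 0.095), and ALDH4A1 fell (-0.39 ± 0.14, adjusted p = 0.097). MTR lost the call without Tm replicate a (log2 0.26). ALDH4A1 lost it without any 1 of the 4 libraries, with DESeq2 (adjusted p = 0.39), library totals (0.16) or only the 4 libraries in the fit (0.14). MAT2A lost the call without untreated replicate a (log2 0.08, adjusted p = 0.58), Tm replicate a (0.12) or Tm replicate b (0.45), with only the 4 libraries in the fit (0.12) and with DESeq2 (0.21).

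Immediate early and short-lived response genes had 5 rises and 1 fall in 24, with a median of 0.15. Among all transcripts 6.14% rose and 6.67% fell. ID3, an inhibitor of basic helix-loop-helix factors, rose by 0.41 ± 0.09 (adjusted p = 0.0041) and kept the call in every alternative. RGS2, a regulator of G-protein signaling, rose by 0.71 ± 0.25 (adjusted p = 0.072), and its mRNA rose as well (log2 0.62, adjusted p = 0.069). Without Tm replicate a 2 rises were left, and without Tm replicate b 1. Solute carriers had 2 rises and 3 falls in 29, beside the same shares of all transcripts. SLC16A14 rose (0.64 ± 0.14, adjusted p = 0.0033) and SLC25A44 rose (0.57 ± 0.17, adjusted p = 0.029), the latter a call lost without Tm replicate a (adjusted p = 0.26) or untreated replicate b (0.17), and with DESeq2 (0.19). SLC25A33 fell (-0.56 ± 0.14, adjusted p = 0.014), as did SLC25A24 (-0.28 ± 0.10, adjusted p = 0.093), and 0 of the 3 falls was called without Tm replicate b.

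The remaining groups are given beside 6.14% rising and 6.67% falling among all transcripts. Aminoacyl-tRNA synthetases had 1 rise in 11 (IARS2, log2 0.24 ± 0.09, adjusted p = 0.091) and proteasome subunits 1 in 7 (PSMD1, 0.22 ± 0.07, adjusted p = 0.044). IARS2 lost the call without any 1 of the 4 libraries (log2 0.16 to 0.30) and with DESeq2 (adjusted p = 0.23). PSMD1 lost it without Tm replicate a (log2 0.25), Tm replicate b (0.19) or untreated replicate a (0.17). Chaperones had 1 rise (PPIG, 0.45 ± 0.10, adjusted p = 0.0025) and 1 fall (HSPD1, -0.17 ± 0.06, adjusted p = 0.085) in 13, and without Tm replicate b their adjusted p-values were 0.12 and 0.27. Replication-dependent histones had 1 rise in 13 transcripts (HIST2H2BE, 0.19 ± 0.06, adjusted p = 0.056). Higher mRNA was called for 9 of 12, HIST2H2BE among them (log2 0.84, adjusted p = 0.017), beside 6.67% of all tested. Reads shared by their near-identical copies could be split by the counting. HIST2H2BE lost the call without Tm replicate a (adjusted p = 0.14), Tm replicate b (0.29) or untreated replicate a (0.12), and with only the 4 libraries in the fit (0.14). Respiratory chain subunits had 0 calls in 12, with ATP5F1 at -0.06 ± 0.07 and NDUFS1 at 0.17 ± 0.07 (adjusted p = 0.14), by edgeR. Of the 12, 6 had Tm libraries on one side of both untreated libraries, near the 50.8% of all transcripts.

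The direction of change also varied with the length of the coding sequence. In the longest decile of transcripts (1171 to 14488 counted codons) 13.5% rose and 4.89% fell, with a median log2 change of 0.08. In the third decile (231 to 306 codons) 3.74% rose and 8.87% fell, with a median of -0.05. Both Tm libraries showed the shift in the longest decile, with medians of 0.091 and 0.049 relative to the untreated mean, against 0.013 and -0.013 for the untreated libraries. The same transcripts had medians of 0.107 and 0.084 in the Tm + ISRIB libraries, and 0.025 and 0.008 with ISRIB alone. The median mRNA change in the longest decile was -0.15. Among transcripts with at least 715 counts, the median of all, with deciles of length taken anew among them, 20.7% rose in the longest decile (at least 1269 codons, n = 614), beside 6.94% in the shortest (up to 154 codons, n = 620). Across all transcripts the correlation of the RPF change with log2 length was 0.07 (n = 12273), a description over transcripts that share libraries and depth. The median length was 639 codons among the rises and 394 among the falls. The median lengths of the mitosis list and the cytosolic ribosomal proteins were 624 and 159 codons, and the part of length in their changes was not tested.

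**Figure D4:**
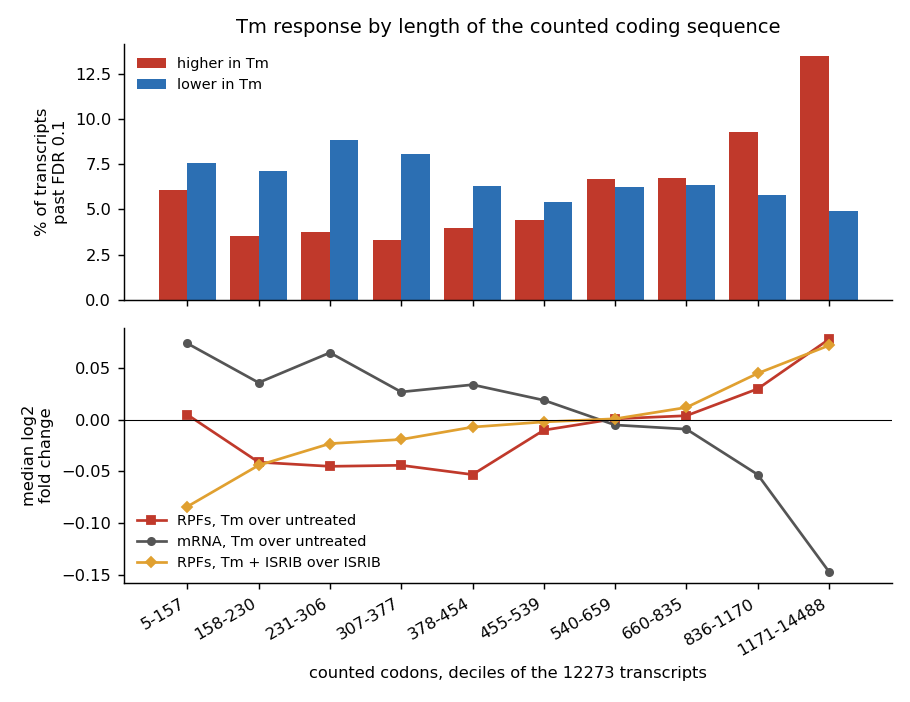
Upper panel, bars give the percent of transcripts called higher or lower in Tm within each decile of counted coding length; lower panel, points give the median log2 fold change of RPFs (squares), of mRNA (circles), and of RPFs in Tm + ISRIB over ISRIB (diamonds) in the same deciles. The share of rises reaches 13.5% in the longest decile, where the mRNA median is -0.15.

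Transcripts with changed RPFs had mRNA changed in the same direction about as often as all transcripts did. On the 10892 transcripts tested in both assays, mRNA rose for 727 (6.67%) and fell for 492 (4.52%). Of the 684 RPF rises among them, 53 had higher and 46 had lower mRNA, and the median mRNA change was -0.016. Of the 755 RPF falls, 98 had higher and 38 lower mRNA, and the median was 0.037. The shares with mRNA changed in the opposite direction were above those of all transcripts, most of all among the falls. The RPF and mRNA log2 changes had a correlation of -0.03 across these transcripts, whose 2 assays come from the same lysates.

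The Tm response was then compared with that of cells given ISRIB, using Tm + ISRIB against ISRIB alone, 4 libraries that are not in the comparison above. Here 88 transcripts rose (0.717%) and 76 fell (0.619%) of the same 12273. Of the 753 rises in Tm, 12 rose and 5 fell with ISRIB present, and their median log2 change was 0.008. Of the 818 falls, 16 fell and 7 rose, and the median was -0.024. The change with ISRIB had the same sign as without it for 52.6% of the rises and 57.2% of the falls. Among all tested transcripts, 49.5% had a positive change with ISRIB.

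A test of the difference between the 2 Tm effects called 804 transcripts (6.55%). It uses the Tm and untreated libraries again, so it is not separate evidence for the Tm calls. For ATF4 the change was 2.69 without and 0.44 with ISRIB, and the difference of 2.25 on the log2 scale passed the test (adjusted p = 1.7e-10). ODC1 differed by -0.78 (adjusted p = 7.4e-05), SRM by -0.71 (adjusted p = 3.8e-04) and SAT1 by 0.94 (adjusted p = 1.3e-04). The difference passed the test for 9 of the 13 cytosolic ribosomal proteins. With ISRIB their median change was -0.09, and 2 of the 13 fell past the threshold, beside 0.619% of all transcripts. The difference passed for 2 of the 20 mitosis transcripts, which had a median of 0.01 with ISRIB.

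UCP2 and LRP1B, singled out after their values were seen, were also higher with Tm in the presence of ISRIB. UCP2 was at 6.73 and 7.09 CPM in ISRIB and at 15.7 and 11.5 CPM in Tm + ISRIB, a rise of 0.96 (adjusted p = 0.025), and the difference of its 2 Tm effects did not pass the test (0.58, adjusted p = 0.28). LRP1B was at 9.55 and 7.25 CPM in ISRIB and at 17.8 and 13.3 CPM in Tm + ISRIB, a rise of 0.90 (adjusted p = 0.053), with a difference of -0.05 (adjusted p = 0.96). For both, the Tm libraries lay above their controls without and with ISRIB.

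**Figure D5:**
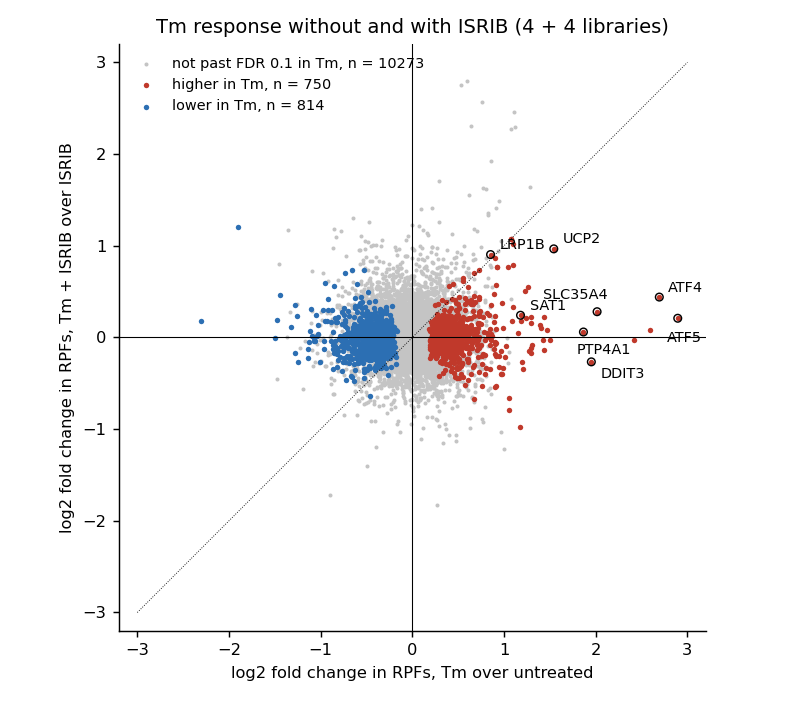
Each point is 1 of 11837 transcripts with at least 50 counts, placed by its RPF log2 fold change of Tm over untreated and of Tm + ISRIB over ISRIB, with colors for the calls in Tm and a dotted line where both are equal (2 points lie outside the axes). Most red and blue points lie near 0 on the ISRIB axis, and UCP2 and LRP1B lie nearer the dotted line.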

How the data were processed

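RPFs and mRNA were measured in HEK293T cells, with biological replicates a and b per treatment. The authors deposited raw read counts per UCSC transcript within its coding sequence, unnormalized and not pooled, with the number of codons counted as another deposited column. The submitters' processing notes name CASAVA 1.8, Bowtie 1.0.0, TopHat2 2.0.7 and 2.0.10 and the build hg19. How reads shared by isoforms or gene copies were assigned is not given in the sources used here. The most common difference between annotated and counted coding lengths was 19 codons, seen for 2636 annotated transcripts.

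The quasi-likelihood model of edgeR 4.0.16 under R 4.3.3 (glmQLFit, glmQLFTest, TMM factors, no block) was fitted to the counts of the 8 Ribo-Seq libraries, with a threshold of 0.1 on the adjusted p; the mRNA fit used the 8 mRNA-Seq libraries. SE was derived from the test statistic F as the size of the log2 change over the root of F. The common biological coefficient of variation was 5.7%. Scripts were tested on simulated data. Identical replicates were looked for: the chi-square per degree of freedom between replicates was 5.14 (untreated) and 1.80 (Tm). PCR copies cannot be told from separate fragments.

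5′ UTRs were taken from GENCODE v29 (GRCh38) for 1909 of 2060 transcripts with a symbol, and no coordinates were converted from hg19. Columns of the authors' comparisons were not used. Members, gene lists and tests were chosen with earlier results of these data known. Genes were named by rule: the 12 largest rises and 12 largest falls with a symbol, at least 50 counts and no overlap of groups; the 10 lowest adjusted p; up to 3 called members per list and direction, or the 2 with most counts where none was called; and all members of the uORF, bZIP and initiation factor lists. Other genes named with no value were called members of a list. Cytosolic ribosomal proteins are not named, and some results that the rule would name are not reported here. The alternatives were DESeq2 1.42.0, other scalings and filters, fewer libraries, and a replicate block.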

Additional observations from a re-analysis of the deposited data

Results flagged for a closer look

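The Tm effect on RPFs differed without and with ISRIB, by edgeR's test of the difference, for 804 transcripts. Among the uORF-regulated mRNAs the log2 difference was 2.25 for ATF4, 2.69 for ATF5, 2.22 for DDIT3, 1.21 for IFRD1, 1.57 for PPP1R15A and 0.70 for PPP1R15B, all past the threshold. SLC35A4 differed by 1.73 and did not pass it (adjusted p = 0.14); it had 4 and 9 counts in the ISRIB libraries.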

How the results depend on the processing

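The 1571 changed transcripts became 660 with DESeq2 (318 higher, 342 lower, 24 over 2-fold), and all 660 were among the 1571. Leaving out 1 library gave 671 to 1487 changed transcripts, 311 to 718 rises, 360 to 796 falls and 57 to 103 changes over 2-fold; the lowest counts came without Tm replicate b (671) and Tm replicate a (798). With library totals 1132 rose. A mean of at least 50 counts left 14 changes over 2-fold, since the low-count transcripts were not tested. With DESeq2, changed mRNA fell to 629 from 1219, Tm + ISRIB against ISRIB to 31 from 164, and the difference of the Tm effects to 242 from 804. What libraries with the same replicate letter shared is not stated in the labels. Deviations of same-letter Tm and untreated libraries had r = 0.0015 across all transcripts. Across the 9532 with a mean of at least 50 counts, r was -0.07. The fit with a replicate block gave 1629 changed transcripts, 1539 of them among the 1571. Of 84 named transcripts past the threshold, 33 stayed past it in each alternative that gave a value. Values of uncalled transcripts that changed sign were CREB3L4 (-0.56 to 0.46), EIF2AK3 (-0.36 to 0.13) and EIF2D (-0.10 to 0.24), each over the fits without 1 library. Depth limits the rest: below about 100 counts over the 4 libraries, changes under about 2-fold were not called.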
